A study of Mus musculus with 6 samples.

Results

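The fibroblast growth factor (FGF) ligands, their receptors and the genes by which cells limit or read out FGF signalling were examined in the whisker pad of Trps1 mutant mouse embryos. The whisker pad is the part of the snout skin that grows the vibrissae, the large tactile hairs. RNA of whole whisker pads was measured on 6 Affymetrix MOE430A arrays, 3 from homozygous Trps1 mutant and 3 from wild-type embryos, each from a separate embryo of E12.5 by the study's design text. The labels do not state the mutant allele or the strain, and they name no other allele or treatment in either group. The members were 33 named genes, and 31 of them had at least 1 probe set annotated to that gene alone, 53 probe sets in all, among 12393 genes measured. Where a gene had several probe sets, the brightest by its mean signal on all 6 arrays stood for it. The other 2 were left without a value: the probe sets of Etv1 are annotated jointly with Gm5454, and no signal of Frs2, a docking adaptor of the receptors, was analysed here.

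Secreted FGFs bind receptor tyrosine kinases at the cell surface with heparan sulfate as a cofactor, and the receptors signal through adaptors to RAS and the kinase ERK. ERK activity induces its own inhibitors, among them the Sprouty and Spred proteins, the phosphatase Dusp6 and the membrane protein Il17rd, together with the ETS transcription factors Etv4 and Etv5, so the levels of these genes are commonly read as a measure of pathway activity. In developing skin FGFs pass between epithelium and mesenchyme: Fgf10 and Fgf7 are made in mesenchyme and act on the epithelial form of Fgfr2, and Fgf20 of the epithelial placode acts on the dermal condensate beneath it.

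The deposited signals are linear array units that had been scaled before deposit, each array having a 2% trimmed mean of 250.1. The 27 Bacillus control probe sets, which match no mouse RNA, read at most 33.8, and that value serves here as the upper edge of the background. Both replicate 3 arrays stood apart from the other 4 on the first principal component (31 in mutant and 36.8 in wild-type, against -30.8 to -4.89), which held 28.7% of the variance. The 3'/5' signal ratio of actin, a sign of RNA or cRNA integrity, was 1.35 on mutant replicate 3, while the other arrays had 1.07 to 1.19. The part of both in the values below was not tested. Wild-type replicate 3 read as female, with Xist at 461.5 and the Y-linked gene Eif2s3y at 11.9, and the other 5 arrays as male, with Eif2s3y at 207.3 to 272.3. The targeted gene Trps1, at its 1 probe set, read 1297.3, 1491.9 and 1506.7 in mutant pads, against 807.6, 1061.4 and 748.1 in wild-type pads. The labels do not say which part of Trps1 is altered, so its level does not check them. Markers of surface epithelium lay above the controls on all arrays in 13 of the 13 measured genes, and those of facial mesenchyme in 12 of 13.

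Of the 31 genes, 13 read above the controls on all 6 arrays and 7 on none. For 20 genes at least 1 group mean lay above the controls, and only these are given a difference of their own below, while the median of a group of genes covers all its measured members, those at background included. Each difference is that of the group means of log2(signal + 16), mutant less wild-type, with limma's standard error (SE), and p-values are limma's, two-sided, with Benjamini-Hochberg adjustment over all 12393 genes. No FGF gene passed an adjusted p of 0.05, and no gene of the whole table did (0%). At an unadjusted p under 0.05 there were 3 of the 31, 2 higher (Fgf4 and Fgfr2) and 1 lower (Fgf10) in mutant pads, or 9.68%, against 5.37% of all genes (2.89% higher and 2.49% lower). The mutant and wild-type signals did not overlap for 5 of the 31, or 16.1%, against 10.4% of all genes. Mutant pads were higher for 2 of the 5 (Fgf4 and Fgfr2), where 5.54% of all genes were apart in that direction, and lower for 3 (Fgf2, Fgf10 and Fgfr1), where 4.83% were. Fgf2 lay below the controls on all 6 arrays, at 15.5 to 25.4, so its separation lies within the background. For Fgf10 all 3 mutant values and 1 wild-type value lay below the controls too. The shares describe these 31 genes and were not tested against the rest of the table. The authors' deposited table of 65 probe sets held 0 of them, and 0 met the study's threshold of an unpaired test at 0.05 with a fold of at least 1.5, which 1.50% of all genes met. That threshold was applied here to log2(signal + 16) at 1 probe set per gene, and not to the authors' own values. The median difference was -0.09 over the 31 genes and 0.00017 over all genes, with 15 of the 31 higher and 16 lower.

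**Figure D1:**
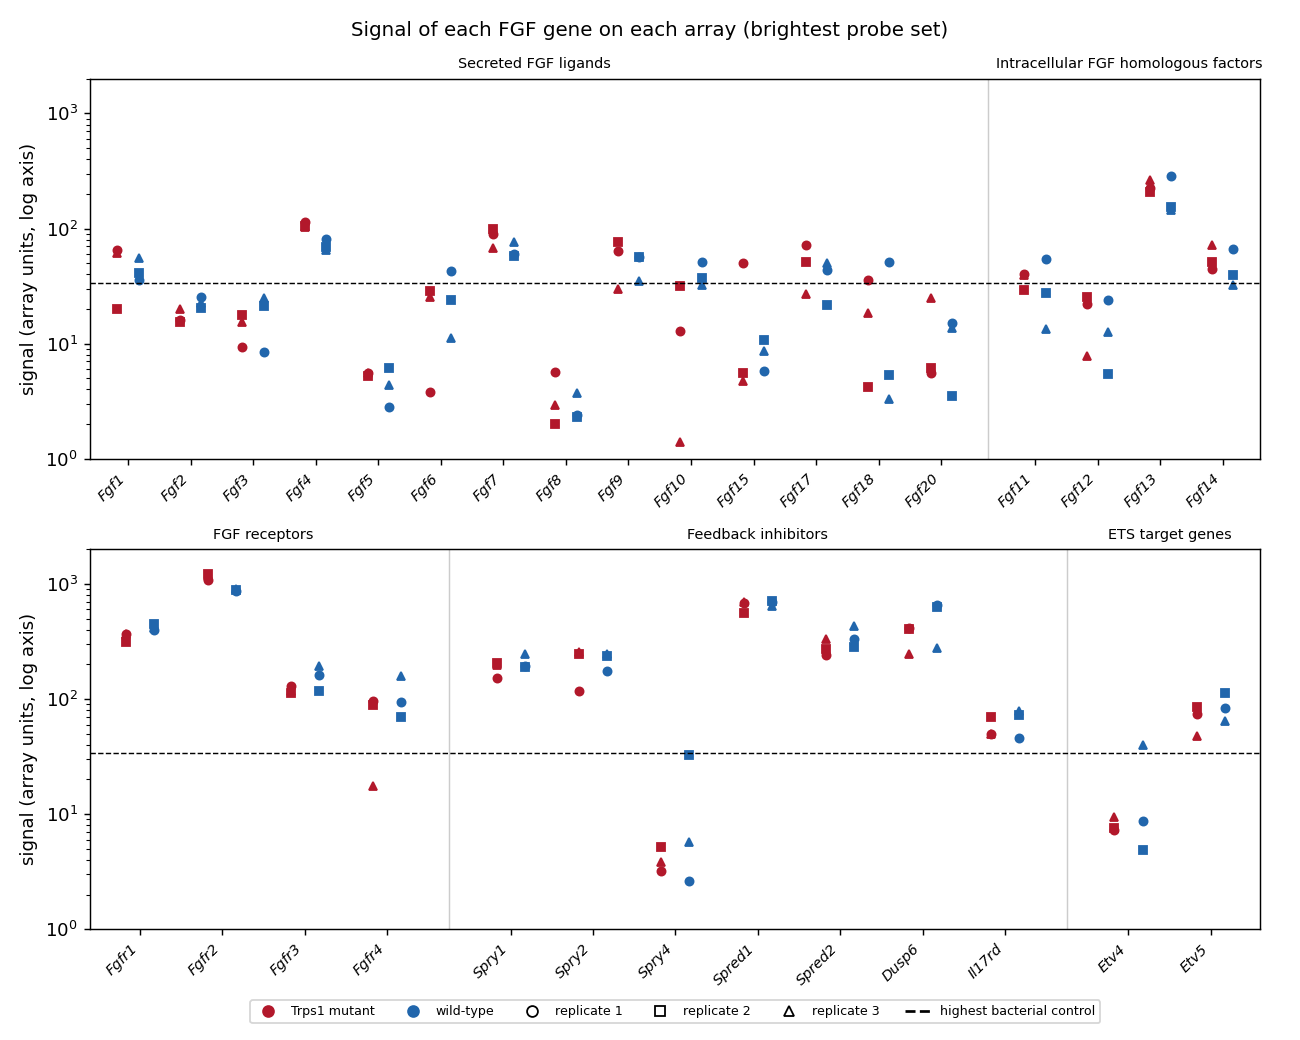
Signal of the brightest probe set of each of the 31 FGF genes on each array (vertical log axis, array units), mutant embryos left of wild-type embryos, with replicates 1 to 3 as circles, squares and triangles. The dashed line is the highest bacterial control at 33.8. Many ligands lie at or below it on most arrays, while Fgfr1, Fgfr2, Fgfr3 and 6 of the 7 feedback inhibitors lie above it on every array.

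**Figure D2:**
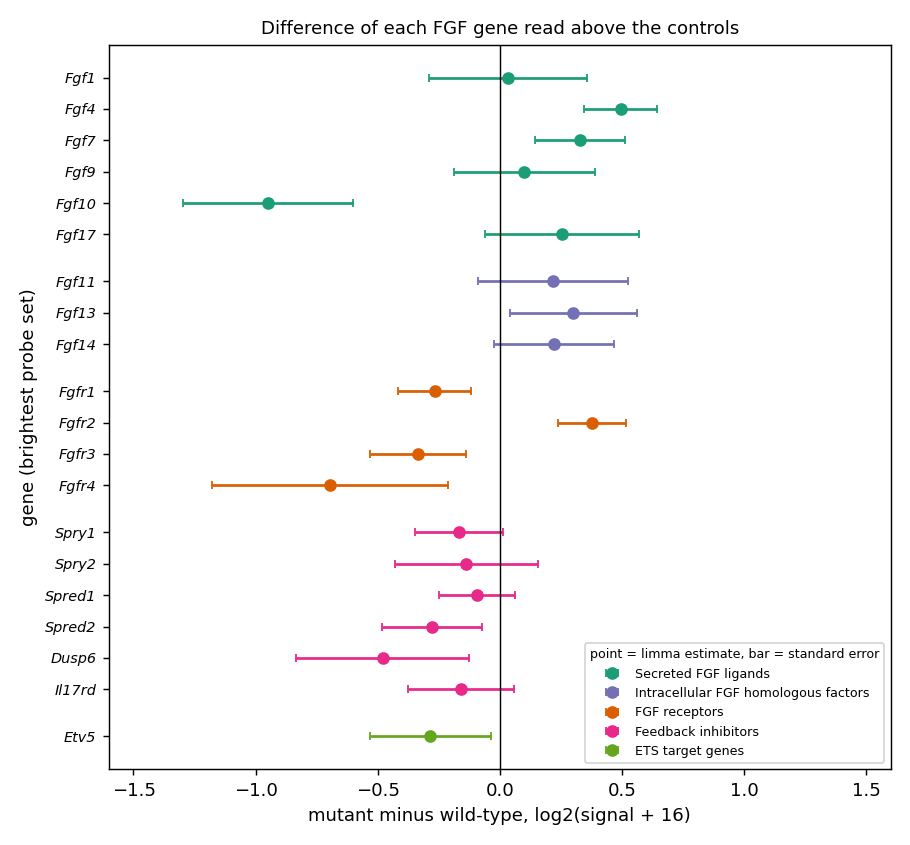
Difference between mutant and wild-type pads for the 20 genes with a group mean above the controls (horizontal axis, log2(signal + 16), with the limma SE as bars, 3 arrays per group). All 6 feedback inhibitors shown and Etv5 lie below 0, from -0.09 (Spred1) to -0.48 (Dusp6), and the value of Fgf10 (-0.95) rests on 3 mutant signals below the controls.

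The secreted ligands were mostly near background in the pad as a whole. Of 14, only Fgf4 and Fgf7 read above the controls on all 6 arrays, and 8 had both group means below them. Among these 8 were Fgf8, an organiser of facial growth, at 2 to 5.7 over the 6 arrays, and Fgf20, the placode ligand, at 3.5 to 25. Fgf2, Fgf3 and Fgf5 also stayed below on every array, while Fgf6, Fgf15 and Fgf18 crossed the line on 1, 1 and 2 arrays. A ligand made by few cells can be present at such values, and in bulk RNA fewer cells of a type and less RNA per cell cannot be told apart. The median difference of the 14 ligands was 0.06, most of them being at background.

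Fgf10, the mesenchymal ligand needed for limb, lung and gland budding, read 12.9, 31.7 and 1.4 in mutant pads, against 50.7, 37.2 and 32.5 in wild-type pads. The groups did not overlap, but all 3 mutant values and 1 wild-type value lay below the controls. With mutant taken at the edge of the background, wild-type was 1.17-fold above it. That is not a lower bound, since 1 wild-type value also lay below the edge. The fitted difference was -0.95 (SE 0.35, limma adjusted p = 0.879). With signals under 32 raised to 32 it was -0.30, and with an offset of 1 in place of 16 it was -1.97, neither with an unadjusted p under 0.05 in limma. It was -0.58 without mutant replicate 3 and -1.31 without mutant replicate 2, so the size of this difference is not settled by these signals. Fgf7, a close relative of Fgf10 from the same kind of cell, did not share that direction. It read 90, 100 and 68.1 in mutant pads, against 60.1, 58.2 and 76.7 in wild-type pads, a difference of 0.33 (SE 0.18), and the groups overlapped through both replicate 3 arrays. Without those 2 arrays its difference was 0.56 (limma adjusted p = 0.578).

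Fgf4, known from the early embryo and the limb ridge, read 113.8, 106 and 102.4 in mutant pads, against 81, 69 and 65.2 in wild-type pads. Every mutant value lay above every wild-type value, with a difference of 0.50 (SE 0.15, limma adjusted p = 0.766). The other 3 probe sets of Fgf4 read 1.4 to 32, all at background, so the gene rests on a single probe set that the others do not share. With the mean of all 4 probe sets in its place the difference was 0.09. The epithelial and mesothelial ligand Fgf9 read 63.3, 76.5 and 29.6 in mutant pads, against 56.7, 56.8 and 35.3 in wild-type pads, and was lowest in replicate 3 of both groups. Fgf17, a relative of Fgf8, read 71.7, 51.1 and 27.2 in mutant pads, against 43.8, 21.6 and 50.5 in wild-type pads. Fgf1, which binds all the receptors, read 65.2, 20.1 and 61.6 in mutant pads, against 35.9, 40.9 and 55.7 in wild-type pads. The groups overlapped for these 3 ligands, whose differences were 0.10 (SE 0.29) for Fgf9, 0.26 (SE 0.31) for Fgf17 and 0.03 (SE 0.32) for Fgf1. The dimmer probe set of Fgf17, at background on all arrays, differed by -0.22 (SE 0.23), and that of Fgf1 by -0.076 (SE 0.27). Without both replicate 3 arrays the difference of Fgf17 was 0.69, and without wild-type replicate 2 it was 0.0066. That of Fgf9 was 0.40 without mutant replicate 3 and -0.11 without mutant replicate 2, and that of Fgf1 was 0.41 without mutant replicate 2 and -0.17 without mutant replicate 1.

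Fgf11 to Fgf14 are FGF homologous factors, which stay inside the cell, do not act as ligands, and regulate voltage-gated sodium channels in neurons. Fgf13, which lies on the X chromosome, was the only one above the controls on every array. It read 226.2, 208.3 and 263.1 in mutant pads, against 284.5, 152.8 and 143.9 in wild-type pads, where replicate 1 was higher than all mutant values. The difference was 0.30 (SE 0.26, limma adjusted p = 0.968), 0.59 without wild-type replicate 1 and 0.05 without both replicate 3 arrays. Its dimmer probe set differed by 0.28 (SE 0.36). Fgf14 read 44.7, 50.7 and 71.2 in mutant pads, against 66.9, 39.7 and 32.1 in wild-type pads, and Fgf11 read 40.1, 29.4 and 39.3 in mutant pads, against 54.6, 27.3 and 13.3 in wild-type pads. Wild-type replicate 1 gave the highest wild-type value of all 3 genes. Fgf14 and Fgf11 each differed by 0.22, and by -0.095 and -0.13 without both replicate 3 arrays. The dimmer probe set of Fgf14, at background on all arrays, differed by -0.41 (SE 0.20), and that of Fgf11 by -0.013 (SE 0.45). Fgf12 stayed below the controls throughout. Neuron markers, 12 of 14 measured, summed to 2786.8 to 3170.4 in mutant pads and to 2161.2 to 2356.6 in wild-type pads, with an unadjusted p under 0.05 for 4 in the higher direction (2.89% of all genes) and 1 in the lower (2.49%), and Snap25 at or below the controls. The neuron list was chosen with earlier results of these data known, so these counts are not independent evidence. The part of neurons in the values of these factors was not tested.

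The receptor genes differed in direction: at the brightest probe sets 1 of 4 read higher and 3 read lower in mutant pads. Fgfr2, whose epithelial form receives mesenchymal FGFs, read 1088.2, 1210.6 and 1170.4 in mutant pads, against 860.6, 893.3 and 905.5 in wild-type pads. The 3 mutant values lay above all wild-type values, with a difference of 0.38 (SE 0.14, limma adjusted p = 0.879). The second Fgfr2 probe set read 1065.4, 1125.8 and 427.9 in mutant pads, against 863.7, 791.6 and 537.2 in wild-type pads. Both replicate 3 arrays were low there, the groups overlapped, and the difference was 0.16 (SE 0.38). At the brighter probe set replicate 3 did not stand apart in either group. The probe sets were not placed on transcripts, so the epithelial form of Fgfr2 was not told apart from its other forms.

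Fgfr1, the receptor of most mesenchyme, read 365.9, 310.5 and 368.2 in mutant pads, against 399.8, 447.3 and 416.3 in wild-type pads. All mutant values lay below all wild-type values, with a difference of -0.27 (SE 0.15, limma adjusted p = 0.93). At its second probe set the groups overlapped and the difference was -0.12 (SE 0.16). Fgfr3, best known from growth plate cartilage, read 129.3, 112.6 and 117.7 in mutant pads, against 161, 118.2 and 194.6 in wild-type pads, a difference of -0.33 (SE 0.20), or -0.17 without both replicate 3 arrays. Its dimmer probe set ran the other way, at 55.6, 64.6 and 11.6 in mutant pads, against 16.6, 7.4 and 10.5 in wild-type pads, where mutant replicates 1 and 2 alone cleared the background. The groups overlapped there, and the difference was 0.99 (SE 0.40, limma adjusted p = 0.93 over all probe sets). Fgfr4, which marks developing skeletal muscle, read 96.3, 88 and 17.6 in mutant pads, against 95.1, 70.3 and 157.6 in wild-type pads. Its difference was -0.69 (SE 0.48), against -0.13 without mutant replicate 3 and 0.14 without both replicate 3 arrays. Of its other 4 probe sets 2 lay below the controls on every array, and the rest differed by 0.15 and 0.53. The median difference of the 4 receptors was -0.30 at their brightest probe sets and 0.19 with the mean of all probe sets of each gene.

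**Figure D3:**
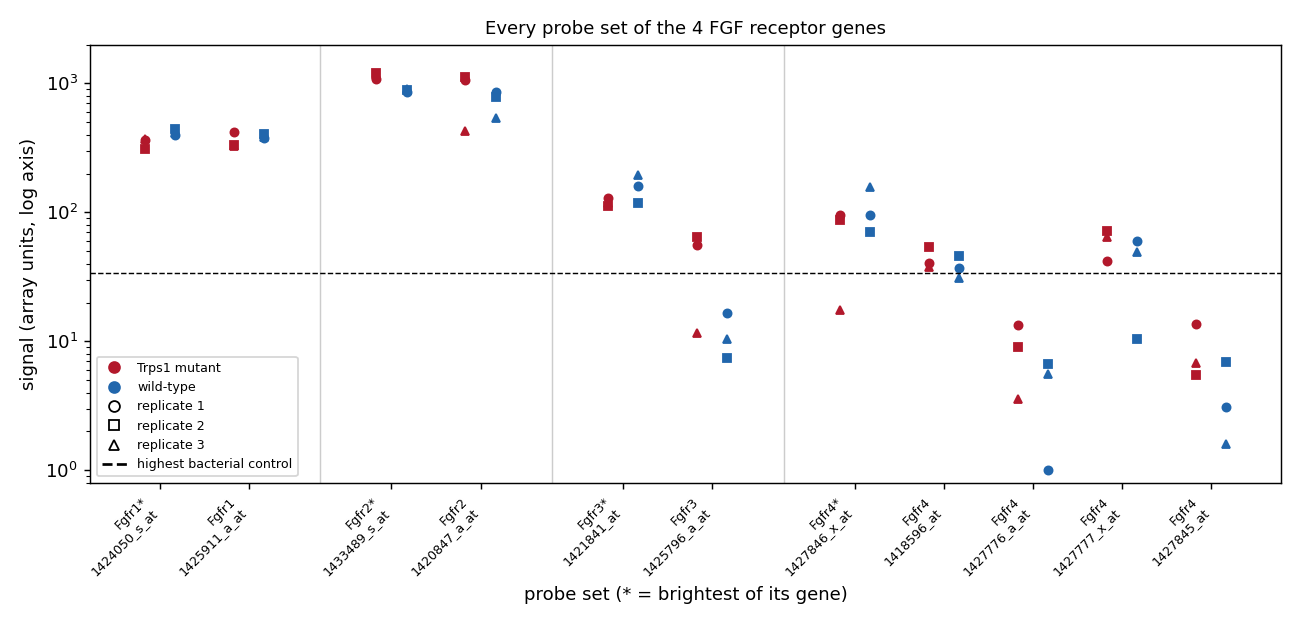
Signal of every probe set of the 4 receptor genes on each array (vertical log axis, array units), mutant left of wild-type, with the brightest probe set of each gene starred and the highest bacterial control as a dashed line. At the starred Fgfr2 probe set all mutant values lie above all wild-type values, and at the other one both replicate 3 arrays lie low. The probe sets of Fgfr3 differ in direction.

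The feedback inhibitors all had lower estimates in mutant pads, each by a small amount. Of 7 genes, 6 read above the controls on all arrays, and all 6 were lower, from -0.09 to -0.48, where 49.9% of all genes were lower. None of the 6 had an unadjusted p under 0.05 in limma, and 5 of the 6 stayed lower without mutant replicate 1, without mutant replicate 2, without both replicate 3 arrays or with the mean of all probe sets, the exceptions lying at 0.19 (Spry2), 0.0026 (Spred1), 0.022 (Il17rd) and 0.00093 (Spry2). Under both other scalings all 6 were lower. The summed signal of the 7 genes was 1656.7, 1759 and 1776.4 in mutant pads, against 2100.3, 2156.8 and 1924.1 in wild-type pads, so that the sums did not overlap although the single genes did. The sum gives bright probe sets more weight. Dusp6, with a mean of 353.7 in mutant and 520.1 in wild-type pads, had the largest difference in mean signal of the 7. The separation of the sums rested on Dusp6. With its signal taken out of every sum, the highest mutant sum lay above the lowest wild-type sum. How often sums of other genes do not overlap was not tested. The median difference of the 7 was -0.17.

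Dusp6, the phosphatase that removes the activating phosphates from ERK, read 413.1, 402.8 and 245.2 in mutant pads, against 653.3, 628.1 and 278.8 in wild-type pads. Replicate 3 was the lowest of each group, and wild-type replicate 3 lay below 2 of the mutant values. The difference was -0.48 (SE 0.35, limma adjusted p = 0.961). It was -0.86 without wild-type replicate 3 and -0.63 without both replicate 3 arrays (limma adjusted p = 0.532), but -0.25 without mutant replicate 3. Spred2, a Sprouty-related inhibitor of RAF activation, read 241.9, 272.5 and 333.5 in mutant pads, against 333.8, 280.4 and 430.2 in wild-type pads, a difference of -0.28 (SE 0.21), with -0.23 (SE 0.21) at its other probe set. Spred1, of the same family, read 677.5, 558.4 and 692.3 in mutant pads, against 696.5, 716.5 and 640.1 in wild-type pads, a difference of -0.09 (SE 0.16). Its other 2 probe sets differed by -0.26 and -0.09.

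The Sprouty genes encode inhibitors that act between the receptor and RAS. Spry1 read 152.9, 205.6 and 196.1 in mutant pads, against 192.6, 189.2 and 246.1 in wild-type pads, a difference of -0.17 (SE 0.18). Spry2 read 118.4, 244.9 and 255.4 in mutant pads, against 176.1, 237.3 and 244.4 in wild-type pads. Replicate 1 was lowest in both groups for Spry2, and mutant replicates 2 and 3 lay above every wild-type value, so its difference of -0.14 (SE 0.29) came from mutant replicate 1. Its dimmer probe set differed by 0.14 (SE 0.44). Spry4 read 3.2 to 5.2 in mutant pads, against 2.6, 32.5 and 5.7 in wild-type pads, all at background. Il17rd (Sef), which holds back the receptor complex at the membrane, read 49.7, 69.6 and 50.1 in mutant pads, against 45.4, 72.8 and 78.8 in wild-type pads, a difference of -0.16 (SE 0.22).

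Of the ETS factors that ERK induces, Etv5 read 73.5, 84.9 and 47.3 in mutant pads, against 83.3, 113.9 and 64.1 in wild-type pads. The groups overlapped, and the difference was -0.28 (SE 0.25, limma adjusted p = 0.97), with -0.26 (SE 0.29) at its second probe set. Leaving out mutant replicate 3 gave -0.089, and leaving out wild-type replicate 2 gave -0.10. Replicate 3 was again the lowest array of each group, as for Dusp6. Etv4 read 7.3 to 9.5 in mutant pads, against 8.7, 4.9 and 40 in wild-type pads, where only replicate 3 exceeded the controls.

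**Figure D4:**
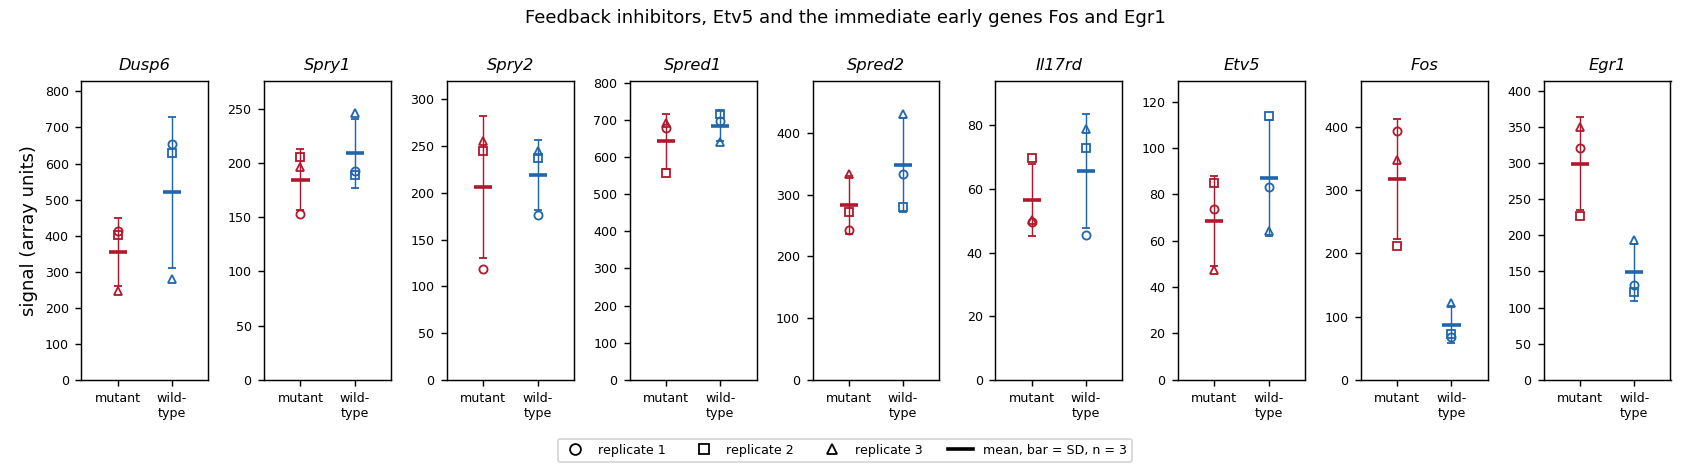
Signal of 6 feedback inhibitors, Etv5 and the immediate early genes Fos and Egr1 on each array (linear axes from 0, array units), mutant left of wild-type, with thick lines for means and bars for the SD of 3 arrays. The groups overlap for the 6 inhibitors and Etv5, with mutant means lower, while all Fos and Egr1 values of mutant embryos lie above those of wild-type embryos.

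Other genes of the pathway were read from 4 lists of 70 genes, 55 of them measured. No gene passed in limma after adjustment, and at an unadjusted p under 0.05 there were 3 higher and 1 lower in mutant pads among the 55, where 5.37% of all genes had such a p. Fos and Egr1, immediate early genes that ERK induces within minutes, were 2 of the 3. Fos read 393.9, 211.6 and 347.3 in mutant pads, against 68, 72.5 and 120.8 in wild-type pads, a difference of 1.69 (SE 0.28, limma adjusted p = 0.523). Egr1 read 321, 226.9 and 349.7 in mutant pads, against 130.6, 121.8 and 193.7 in wild-type pads, a difference of 0.94 (SE 0.23). Both differed in the opposite direction to the feedback inhibitors. Fos, Egr1 and Sdc4 also stand in the authors' deposited table, made from the same arrays, so their direction is not independent evidence. The 1 gene lower was Dusp2, a phosphatase of the same family as Dusp6, at 102.2, 80.9 and 70.7 in mutant pads, against 130.4, 122.6 and 102.6 in wild-type pads, a difference of -0.43 (SE 0.18). Fos, Egr1 and Dusp2 came from a list of ERK-inducible genes with 14 measured. Of these 14, 6 had higher and 8 had lower estimates in mutant pads, with a median difference of -0.06. The groups were apart for 2 of them higher and 2 lower, where 5.54% and 4.83% of all genes were.

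Among 18 measured genes for heparan sulfate and its core proteins 10 had higher and 8 had lower estimates in mutant pads. Their median difference was 0.04. The groups were apart for 1 gene higher (Sdc4) and 1 lower (Sdc1), where 5.54% and 4.83% of all genes were. Sdc4 read 226.4, 226.6 and 169.8 in mutant pads, against 108.9, 164.2 and 79.6 in wild-type pads, a difference of 0.78 (SE 0.25). Sdc1, the main syndecan of epithelia, read 922.9, 1022.9 and 1321.5 in mutant pads, against 1446.8, 1408.8 and 1437.2 in wild-type pads, a difference of -0.41 (SE 0.17), and its groups did not overlap. Hs2st1, a heparan sulfate sulfotransferase, differed by -0.24 (SE 0.16). In the RAS-ERK relay 14 of 19 genes were measured, with a median difference of -0.01 and 0 of 14 at an unadjusted p under 0.05 in limma. The adaptor Gab1 differed by 0.29 (SE 0.18), the adaptor Grb2 by 0.22 (SE 0.15) and the RAS inhibitor Rasa1 by 0.27 (SE 0.20). Of 9 measured further ligands, co-receptors and modulators 0 had an unadjusted p under 0.05, among them the ligand Fgf22 at 0.36 (SE 0.26), the decoy receptor Fgfrl1 at -0.33 (SE 0.23) and the carrier Fgfbp1 at -0.23 (SE 0.24).

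Markers of the cells that make and receive FGFs were summed for each array, and none of them passed an adjusted p of 0.05 in limma. The marker lists were chosen with earlier results of these data known, so their counts are not independent evidence. Placode markers, 10 of 12 measured, summed to 862.5 to 970.5 in mutant pads and to 1085.4 to 1640.7 in wild-type pads, with an unadjusted p under 0.05 for 4 in the lower and 0 in the higher direction (2.49% and 2.89% of all genes), and Shh at or below the controls on all arrays. Dermal condensate markers, 7 of 7 measured, summed to 1850.8 to 2265.3 in mutant pads and to 2204.2 to 3152.4 in wild-type pads, with 4 lower and 0 higher at the same threshold. Facial mesenchyme markers summed to 20568.1 to 21266.9 in mutant pads and to 18822.2 to 19061.7 in wild-type pads, with 2 higher and 0 lower at that threshold. Of these 13 genes 8 had higher and 5 had lower estimates, with a median difference of 0.12. The sum gives bright genes, here collagens among them, more weight. Surface epithelium markers summed to 3626 to 5009.4 in mutant pads and to 3890.3 to 5761.4 in wild-type pads, with 0 of 13 past an unadjusted p of 0.05 in limma. Skeletal muscle markers, the background for Fgfr4 and Fgf6, summed to 416.1 to 550.7 in mutant pads and to 454.5 to 633 in wild-type pads, with 1 higher and 1 lower, and Myf5, Myl1, Tnnt1, Tnni1 and Myh3 at or below the controls on all arrays. The part of these cell types in the FGF values was not tested.

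Upstream sequence is shown for Fgfr2, Fgf10 and Dusp6, on which the receptor, ligand and feedback results turn, and for Fgf9 and Spred2, each of which holds 1 of the motifs searched. Trps1 is a GATA-type zinc finger protein that binds the letters GATA, and ETS factors bind around GGAA. RefSeq (GRCm38.p6) gave windows for 25 of the 33 genes, 34 windows of 250 bases ending at a transcript start. The GATA motif was searched on both strands in 4 forms that share the letters GATA, beginning with A (AGATAA when ending in A, and when ending in G it was AGATAG) or beginning with T (TGATAA when ending in A, and when ending in G it was TGATAG). The ETS motif was searched on both strands as GGAAGT, and neither motif contains the other. Each sequence runs 5' to 3' on the strand of the gene, and capitals mark the matches.
Fgfr2, chr7:130266809-130267058, minus strand: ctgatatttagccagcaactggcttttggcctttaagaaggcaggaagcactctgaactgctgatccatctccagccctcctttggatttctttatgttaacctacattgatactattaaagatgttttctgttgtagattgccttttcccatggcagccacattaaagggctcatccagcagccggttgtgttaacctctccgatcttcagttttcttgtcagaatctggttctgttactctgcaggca
Fgf10, chr13:118714449-118714698, plus strand: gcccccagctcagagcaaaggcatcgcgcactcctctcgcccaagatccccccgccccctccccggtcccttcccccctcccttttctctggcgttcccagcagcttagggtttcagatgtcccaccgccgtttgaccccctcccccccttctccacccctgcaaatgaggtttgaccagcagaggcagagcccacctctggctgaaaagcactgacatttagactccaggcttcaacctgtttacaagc
Dusp6, chr10:99262981-99263230, plus strand: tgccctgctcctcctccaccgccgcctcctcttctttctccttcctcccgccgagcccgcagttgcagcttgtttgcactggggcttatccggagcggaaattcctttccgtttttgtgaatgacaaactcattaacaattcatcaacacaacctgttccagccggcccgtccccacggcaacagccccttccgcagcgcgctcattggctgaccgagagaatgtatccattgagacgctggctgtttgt
Fgf9, chr14:58072436-58072685, plus strand: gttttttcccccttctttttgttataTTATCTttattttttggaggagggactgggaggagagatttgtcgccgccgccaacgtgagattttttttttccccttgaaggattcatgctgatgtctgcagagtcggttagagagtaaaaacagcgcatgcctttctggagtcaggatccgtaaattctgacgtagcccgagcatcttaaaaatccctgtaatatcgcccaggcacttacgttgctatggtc
Spred2, chr11:19924192-19924441, plus strand: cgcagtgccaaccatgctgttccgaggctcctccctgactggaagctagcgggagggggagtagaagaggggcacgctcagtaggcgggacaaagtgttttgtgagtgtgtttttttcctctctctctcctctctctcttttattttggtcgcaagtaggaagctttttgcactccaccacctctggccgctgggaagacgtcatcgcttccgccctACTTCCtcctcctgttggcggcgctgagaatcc

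The windows of Fgfr2, Fgf10 and Dusp6 held no match to either motif as searched. The bare letters GATA and GGAA were not searched. With both strands read, each of these windows holds GGAA, and those of Fgfr2 and Dusp6 also hold GATA. The GATA motif was in 2 of the 34 windows, those of Fgf3 and Fgf9, against 26.5% of all 32851 windows in the table. The ETS motif was in 4 of the 34, in windows of Etv5, Fgf13, Frs2 and Spred2, against 19.7% of all. The windows of the FGF genes had a median GC content of 62.4%, against 52.4% over all windows. These counts describe letters in short windows and say nothing of binding elsewhere in the genes.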

How the data were processed

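Per the labels, biotin cRNA made from each pad's total RNA went on an Affymetrix MOE430A array of 1 colour. For every probe set and array the deposited table holds a linear intensity, and how probes were summarised into it is not stated by the labels or the design text. The deposited table of 65 probe sets holds a linear ratio (fold) and log2 group values made with GeneSpring GX 10.0, per the study's design text, and was used only to see which genes it lists.

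Of 22690 probe sets 64 controls were left out. Of the other 22626, 20380 had 1 gene, 691 several and 1555 none by the platform annotation, and 20351 were matched by gene number to a mouse reference (GRCm38.p6). Each of the 12393 genes was represented by its probe set with the highest mean. Values were log2(signal + 16), which pulls differences of dim genes toward 0. The group means were compared in limma 3.58.1 in R 4.3.3 (lmFit, eBayes), without covariates. Dimmer probe sets were fitted together with all 22626 probe sets. The program was tested on simulated arrays. Genes and lists were chosen with earlier results of these data known. All members were named, with up to 3 genes of each pathway list by smallest unadjusted p. Replicate numbers were not taken as pairs: same-numbered deviations from the group means correlated at 0.0358, 0.0472 and 0.0901 over 12393 genes. With 3 arrays per group an exact permutation test cannot go below p = 0.1 and precision is set by the number of arrays. Alternatives were another offset or floor, 2 scalings, a filter on dim genes, other variance priors, array weights, a replicate block, other probe set choices and leaving out arrays.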

Additional observations from a re-analysis of the deposited data

How the results depend on the processing

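Across 17 alternatives no FGF gene passed an adjusted p of 0.05 in limma, and of 334 differences over the 20 readable FGF genes 312 kept their sign. The trended and robust prior, the replicate block and the filter on dim genes leave each estimate as it is, so no sign could change there. Over all genes 0 passed, except Epyc, named after its value was seen, the 1 gene that passed with the dimmest genes left out (8262 tested) and with the trended and robust prior. By the methods' t-test 186 genes met the study's threshold, 0 of them FGF genes. With the replicate number as a block 0 genes passed, 5.89% of all genes had an unadjusted p under 0.05, and the block changed no call. Every array's deviations correlated best with those of its own number in the other group, a hint from the data and not the design. Under the replicate block 4 FGF genes had an unadjusted p under 0.05 in place of 3, Dusp6 being the addition (limma adjusted p = 0.834).

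With the mean of all probe sets 1 FGF gene had an unadjusted p under 0.05, where 5.16% of all genes did, and 2 had groups apart, where 10.2% did. The receptor median was then 0.19, and differences turned for Fgf1 (-0.021), Fgf14 (-0.093), Fgfr3 (0.33), Fgfr4 (0.11) and Spry2 (0.00093). Without _x_at and _s_at probe sets 3 had groups apart (10.4% of all genes), the receptor median was 0.016 and Fgfr4 stood at 0.15. With the dimmest genes left out 3 had groups apart (10.4% of the genes kept) and the ligand median, over fewer genes, was 0.41. Without both replicate 3 arrays 11 had groups apart, where 39.7% of all genes did, the receptor median was -0.015 and the ETS median -0.11, and Fgf1 (-0.0053), Fgf11 (-0.13), Fgf14 (-0.095), Fgfr4 (0.14) and Il17rd (0.022) turned. Leaving out single arrays gave 6 to 11 FGF genes with groups apart, since fewer arrays overlap less (18.6 to 24.8% of all genes). Fgf1 stood at -0.0012 with an offset of 1 and -0.048 with array weights, and Fgf11 at -0.050 with the floor of 32.

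Over single arrays left out, Fgf1 lay at -0.17 to 0.41, Fgf9 at -0.11 to 0.40, Fgf11 at -0.088 to 0.55, Spred1 at -0.15 to 0.0026 and Spry2 at -0.32 to 0.19. Fgf17 lay at 0.0066 to 0.53, Fgf14 at 0.057 to 0.45, Fgfr3 at -0.51 to -0.18, Fgfr4 at -1.0 to -0.13, Spry1 at -0.24 to -0.046, Spred2 at -0.42 to -0.12, Il17rd at -0.35 to -0.038 and Etv5 at -0.45 to -0.089. The median of all 14 ligands lay at -0.011 to 0.14, of the homologous factors at 0.096 to 0.50, of the receptors at -0.37 to -0.22, of the feedback inhibitors at -0.28 to -0.086 and of the ETS genes at -0.40 to -0.18. The causes of these changes were not tested. Signal over background limits the ligands, of which 8 of 14 could be given no difference.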
